A study of Mus musculus with 8 samples.

Results

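The 43 genes described here build and run the protein-folding and secretory entry machinery of the endoplasmic reticulum (ER), and were chosen by gene symbol from among 46983 genes in a count table of 8 RNA-seq libraries. They comprise 3 HSP70-type proteins, 4 HSP90-type and lectin chaperones, 7 protein disulfide isomerases, 4 J-domain proteins, 3 prolyl isomerases and collagen chaperones, 3 small stress-induced factors, 8 genes of ER-associated degradation, 8 genes of the translocon and 3 sensors of ER stress. All 43 were found in the table and all 43 passed the filter on low counts, as did 15175 genes in all. The rule reads symbols and uses no measured value, but the members were chosen with earlier results of these data known.

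The libraries came from B cells of the bone marrow of wild-type (WT) mice, isolated with magnetic beads (MACS) and kept under hypoxia. Libraries 1 to 4 of the Vehicle group were from cells given vehicle, and libraries 1 to 4 of the Estrogen group from cells given estrogen, so WT genotype and hypoxia were shared by both groups and no normoxic library was analysed here. The labels are silent on whether the libraries within a group derive from different mice or cultures, so the spread between them, and every p-value built on it, may be technical. Age, sex and the duration of treatment were not on the labels.

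Total reads per library ran from 30181834 to 39088597, at which a count of 3 reads equals 0.078 to 0.102 CPM (reads of a gene for every 1000000 reads of the scaled library). One library stood apart from its group before any result is read. Vehicle 3 held 9842 reads on 4 Y-linked genes, against 34 in Estrogen 3 and at most 3 in each of the other 6 libraries. It held 85 reads of Xist, a transcript of female cells, against 15618 to 48066 in the other libraries. By these reads Vehicle 3 was male and the others female, so it came from a different mouse. Values without Vehicle 3 are given beside the counts below. Genes that define B cells were abundant, Cd79a for example at 2504 ± 713 CPM (SD, n = 4) in Vehicle and 1847 ± 709.9 CPM (SD, n = 4) in Estrogen, with the summed level of 5 markers between 4152 and 9543 CPM, but markers of other marrow cells were also read: 8 neutrophil genes summed to 3062 to 9003 CPM, 10 genes of monocytes and macrophages to 1538 to 3032 CPM and 7 genes of plasmacytoid dendritic cells to 2830 to 4498 CPM. In such bulk libraries, fewer cells of a type and less RNA per cell cannot be told apart.

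Proteins destined for secretion or for membranes enter the ER through the translocon, where HSP70-type and lectin chaperones hold them, disulfide isomerases join their cysteines and ER-associated degradation removes those that do not fold. When unfolded proteins accumulate, the sensors IRE1 (Ern1), ATF6 and PERK (Eif2ak3) raise transcription of the chaperone genes, a program called the unfolded protein response. B cells use a small part of this machinery for their surface receptor, and plasma cells, which secrete antibody, expand it greatly. Much of the transcriptional program acts through short promoter elements: the ER stress response element (ERSE, CCAAT and CCACG with 9 bases of any kind between them), the shorter ERSE-II (ATTGG and CCACG with 1 base between them) and the XBP1-type element UPRE (TGACGTGG).

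To show what these genes carry at their starts, the promoter window of RefSeq (250 bases before to 50 after the first base of the gene, GRCm38.p6) was searched on both strands. A window was on hand for 36 of the 43 members. ERSE was found in 8 of these 36 (22.2%): Calr, Canx, Creld2, Dnajc3, Hsp90b1, Hspa5, Pdia6 and Syvn1. Of all 32851 promoter windows 0.119% held it, and of the 10502 tested genes with a window only 14 did, the same 8 members among them. ERSE-II was found in Dnajb11 and Herpud1 (5.56% of members, 0.0365% of all windows) and UPRE in Txndc5 and Txndc11 (0.676% of all windows). These matches describe letters and not bound sites. The elements are printed below on the strand of each gene, with the matched letters in capitals and flanks in lower case, so that a match on the reverse strand reads CGTGG first and ATTGG last.
Calr (chr8:84847065-84847103, minus strand): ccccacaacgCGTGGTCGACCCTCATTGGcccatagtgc
Canx (chr11:50325790-50325828, minus strand): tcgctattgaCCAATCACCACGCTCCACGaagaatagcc
Creld2 (chr15:88819510-88819548, plus strand): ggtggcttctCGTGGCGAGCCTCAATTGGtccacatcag
Hsp90b1 (chr10:86705628-86705666, minus strand): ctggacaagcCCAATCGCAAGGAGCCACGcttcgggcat
Hsp90b1 (chr10:86705523-86705561, minus strand): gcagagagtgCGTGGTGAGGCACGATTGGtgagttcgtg
Pdia6 (chr12:17266481-17266519, plus strand): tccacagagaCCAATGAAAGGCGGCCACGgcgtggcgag
Syvn1 (chr19:6046522-6046560, plus strand): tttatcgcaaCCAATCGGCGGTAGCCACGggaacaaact
Herpud1 (chr8:94386367-94386397, plus strand): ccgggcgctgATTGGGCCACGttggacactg
Dnajb11 (chr16:22857842-22857872, plus strand): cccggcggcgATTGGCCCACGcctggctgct

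Whole windows are given for 4 members on which the comparison with estrogen turns: Hspa5 and Dnajc3, which share ERSE and a close function, and Pdia5 and Serpinh1, which have neither ERSE nor ERSE-II and showed the largest differences among the members. In the first pair the capitals mark ERSE, from −65 to −47 in Hspa5 and from −105 to −87 in Dnajc3, counted from RefSeq's first base of the gene as 0, which need not be that of the GENCODE coordinates given further on. In the second pair they mark the core of the hypoxia response element (HRE, ACGTG), which lay from −8 to −4 in Pdia5 and, on the reverse strand, from −171 to −167 in Serpinh1. The first pair also held this core, left in lower case. It lay from −155 to −151 in Hspa5 and, on the reverse strand, from −149 to −145 in Dnajc3. That 5-base core was found in 18 of 36 member windows (50%), in 28.7% of the windows of tested genes and in 19.6% of all windows. Its letters also lie inside UPRE. The study writes the core as A/GCGTG, of which only ACGTG was searched. A window counted as without the core may therefore hold GCGTG. The palindromic estrogen response element (GGTCA and TGACC with 3 bases between them) was in 0 of the 36 member windows and in 0.07% of all windows. The core of the amino acid response element bound by ATF4 (TGATG and AA with 1 base between them) was in Herpud1 and Txndc5, and in 3.97% of all windows.
Hspa5 (chr2:34771840-34772139, plus strand): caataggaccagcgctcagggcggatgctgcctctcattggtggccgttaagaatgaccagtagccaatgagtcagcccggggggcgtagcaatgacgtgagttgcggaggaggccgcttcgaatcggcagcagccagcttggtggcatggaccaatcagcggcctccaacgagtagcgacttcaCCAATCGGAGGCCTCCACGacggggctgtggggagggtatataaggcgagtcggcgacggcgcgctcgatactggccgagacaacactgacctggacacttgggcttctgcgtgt
Dnajc3 (chr14:118937682-118937981, plus strand): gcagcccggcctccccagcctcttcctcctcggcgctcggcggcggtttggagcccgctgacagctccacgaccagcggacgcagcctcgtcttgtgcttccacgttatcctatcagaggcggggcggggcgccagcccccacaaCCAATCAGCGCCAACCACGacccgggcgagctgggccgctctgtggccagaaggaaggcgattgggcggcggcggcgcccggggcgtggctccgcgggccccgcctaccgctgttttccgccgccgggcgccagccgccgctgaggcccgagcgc
Pdia5 (chr16:35490824-35491123, minus strand): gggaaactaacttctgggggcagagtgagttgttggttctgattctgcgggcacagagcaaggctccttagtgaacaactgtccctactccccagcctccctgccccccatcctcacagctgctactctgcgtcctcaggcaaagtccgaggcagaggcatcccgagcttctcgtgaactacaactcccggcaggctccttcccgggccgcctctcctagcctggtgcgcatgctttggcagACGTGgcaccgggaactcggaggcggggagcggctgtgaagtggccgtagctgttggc
Serpinh1 (chr7:99353190-99353489, minus strand): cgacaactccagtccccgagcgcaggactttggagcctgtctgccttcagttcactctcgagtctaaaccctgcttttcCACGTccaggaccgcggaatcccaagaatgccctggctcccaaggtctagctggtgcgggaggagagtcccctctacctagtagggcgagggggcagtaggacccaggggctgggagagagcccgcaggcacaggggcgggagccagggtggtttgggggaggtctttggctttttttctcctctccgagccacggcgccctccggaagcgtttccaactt

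Levels were compared between genes per kilobase of exon. In the Vehicle group the most abundant members were Calr (calreticulin, a lectin chaperone and calcium store) at 210.4 CPM per kb and Herpud1 (a membrane protein of ER-associated degradation) at 179.9 CPM per kb, followed by Hspa5 (BiP, the HSP70 of the ER) at 124 and Hsp90b1 (GRP94, the HSP90 of the ER) at 124 CPM per kb. The disulfide isomerases Pdia3 and P4hb stood at 118 and 96.9 CPM per kb. The lowest were Pdia5 at 3.40, Hspa13 at 4.35, Derl2 at 7.98 and Ern1 at 8.57 CPM per kb. Over the 4 Vehicle libraries the ranges of Calr and Herpud1 overlapped, as did those of Hspa5, Hsp90b1 and Pdia3, so the order within each of these sets is not resolved. The members that differed most between the groups were thus among the scarce ones, as the plot of level by gene shows.

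**Figure D1:**
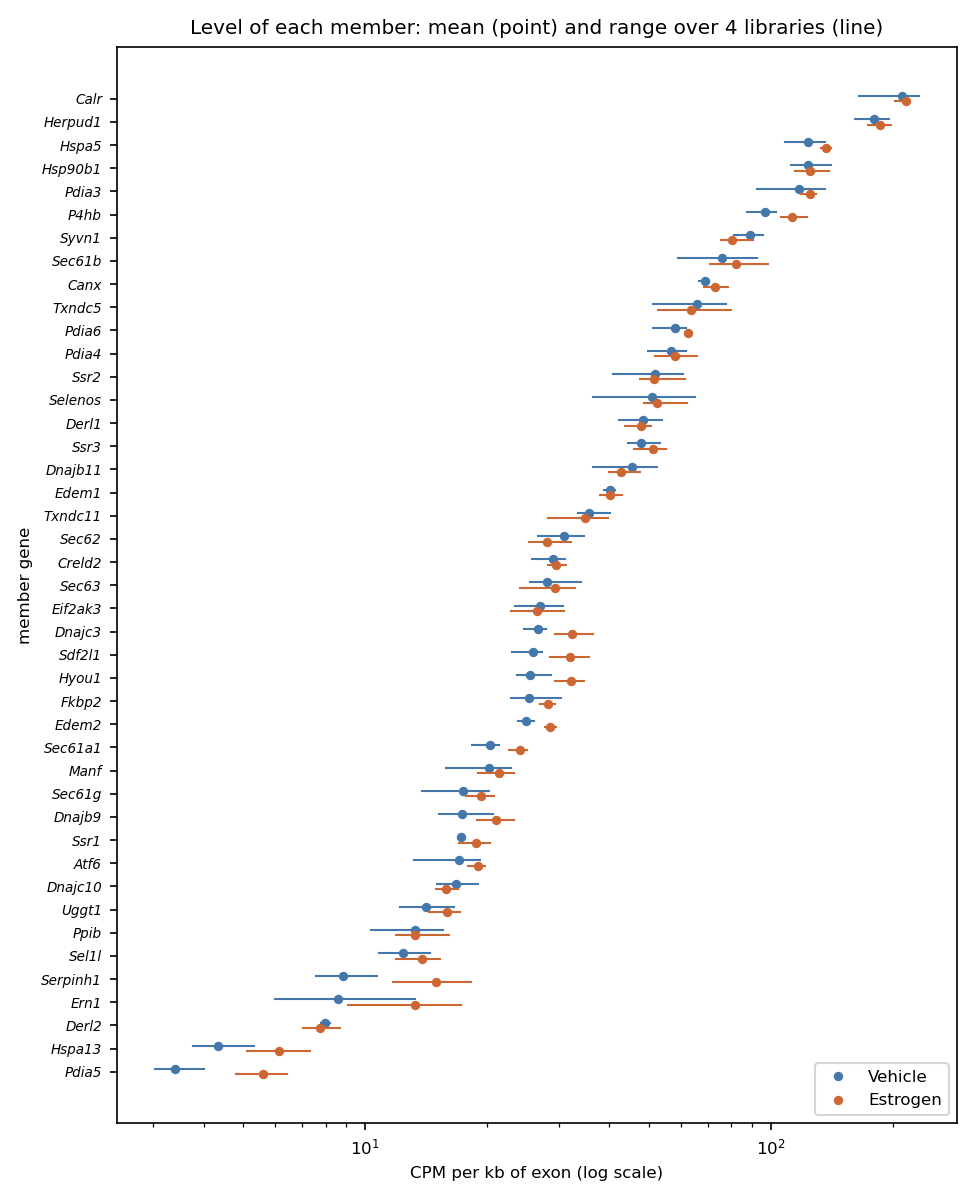
Level of each of the 43 members in CPM per kilobase of exon (log axis), with the mean of 4 libraries as a point and their range as a line, Vehicle in blue and Estrogen in orange. The ranges of the 2 groups lie apart for 8 members, from Pdia5 (3.40 in Vehicle) and Serpinh1 (8.82 in Vehicle) among the scarcest genes to the abundant P4hb (96.9 in Vehicle). They overlap for the abundant Calr, Herpud1, Hspa5 and Hsp90b1.

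The comparison asked how estrogen altered the transcriptome of B cells under hypoxia. No member passed the test. With edgeR's quasi-likelihood test and Benjamini-Hochberg adjustment over 15175 genes, 0 genes reached an adjusted p under 0.05 (0% of genes tested), and the adjusted p of the members ran from 0.860 to 0.999. The smallest adjusted p of a member was 0.0929 (Pdia5) with DESeq2, 0.833 (Pdia5) with limma-voom and 0.130 (Hspa13) with the replicate number as a block in edgeR, so its size depended on the tool although no member passed. An unadjusted p under 0.05 was found for 535 genes (3.53%), in either direction, and for 10 of the members, and other tools called 1 gene at most, none a member. The members nevertheless lay mostly to one side: 33 had a higher fitted value in Estrogen and 10 a lower one, with a median log2 difference of 0.09, whereas over all genes tested 48.9% had a higher fitted value and the median was −0.0054.

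A set of 10 members, all higher in Estrogen, had an unadjusted p under 0.05, which is 23.3% of the 43 beside a background of 2.27% of all genes tested. They are Pdia5, Serpinh1, Hyou1, Hspa13, Dnajc3, Sec61a1, Sdf2l1, Edem2, Dnajb9 and P4hb. None of the 33 others reached that level in the lower direction, where the background was 1.26%. In 8 members the 4 Estrogen libraries all lay above the 4 Vehicle libraries (18.6%, background 0.896%), and in 0 members all lay below (background 0.771%). The median log2 difference was 0.29 over the 10 and 0.04 over the 33. Of the 10, 4 were among the 50 genes of smallest p, with Pdia5 at rank 2, Serpinh1 at rank 3, Hyou1 at rank 29 and Hspa13 at rank 30. Without Vehicle 3, 33 members had a higher fitted value and 10 were at that level (9 of the same 10), beside 2.08% of all genes tested. The groups of 9 did not overlap, but the all-gene share of non-overlap was not counted without Vehicle 3. Since the members were chosen with earlier results of these data known, the shares given here are descriptions and no test.

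The number at that level depended on single libraries. It was 7 without Estrogen 2, where the all-gene share was 0.944%, and 7 without Estrogen 1, where that share was 5.95%. The number with a higher fitted value moved from 33 to 25 without Vehicle 4 and to 40 without Vehicle 1. For 39 of the 43 members the 95% interval of the difference stayed inside a 1.5-fold change in either direction. The 4 whose interval went beyond it were Hspa13, Pdia5, Serpinh1 and Ern1, and each went beyond it on the higher side.

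**Figure D2:**
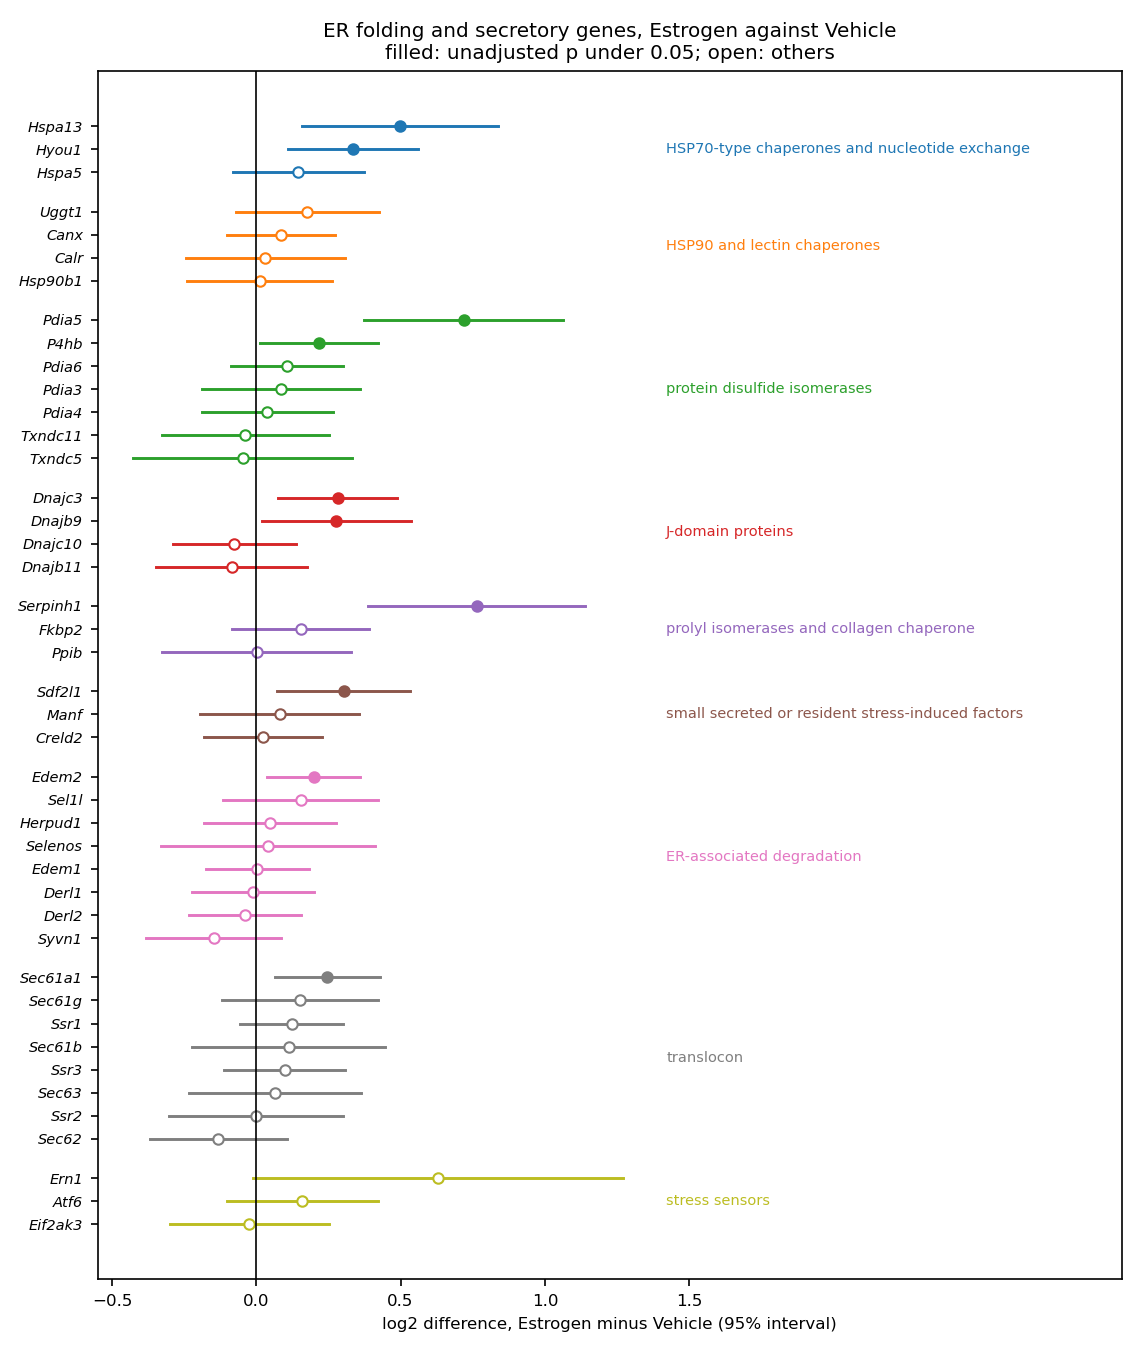
Fitted log2 difference of each member (Estrogen minus Vehicle, 4 libraries each) as a point with its 95% interval as a line, grouped and coloured by role; filled points have an unadjusted p under 0.05. The 10 filled points all lie to the right of 0, and Serpinh1 (0.76), Pdia5 (0.72), Ern1 (0.63) and Hspa13 (0.50) lie farthest out.

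Of the 3 HSP70-type genes, all had a higher fitted value in Estrogen and 2 were at an unadjusted p under 0.05. Hyou1 (ORP150 or GRP170, chr9:44379490-44392369, plus strand) is a large HSP70-like chaperone that exchanges the nucleotide of BiP, and gene coordinates here and below are of GRCm38 in GENCODE M21. Its level was 171.2, 186.0, 170.9 and 208.1 CPM in Vehicle 1 to 4 and 212.0, 250.7, 217.5 and 248.0 CPM in Estrogen 1 to 4. The lowest Estrogen library lay just above the highest Vehicle library, and the difference was 0.33 ± 0.10 (log2 scale, SE, 95% interval 0.11 to 0.56). Hspa13 (STCH, chr16:75745431-75767104, minus strand), a microsomal protein with an HSP70 ATPase domain, was read at 26.7, 30.2, 25.7 and 36.3 CPM in Vehicle 1 to 4 and 37.4, 45.4, 35.0 and 50.1 CPM in Estrogen 1 to 4. Estrogen 3 lay below Vehicle 4, so the groups overlapped, and the difference was 0.50 ± 0.15 (log2 scale, SE, 95% interval 0.16 to 0.84). Hspa5 (chr2:34771970-34777547, plus strand) encodes BiP, the chaperone that binds heavy chains of immunoglobulin and holds the 3 sensors inactive. It measured 576.7, 552.7, 505.6 and 458.8 CPM in Vehicle 1 to 4 and 562.7, 572.2, 584.8 and 595.6 CPM in Estrogen 1 to 4. The Estrogen libraries were tightly grouped, and Vehicle 1 lay inside their range. The difference was 0.15 ± 0.10 (log2 scale, SE, 95% interval −0.083 to 0.37), a smaller fitted value than those of Hyou1 and Hspa13, and the 3 were not tested against each other.

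None of the 4 HSP90-type and lectin chaperones was at an unadjusted p under 0.05, though all 4 fitted values were above 0, with a median of 0.06. Hsp90b1 measured 567.7, 511.6, 462.8 and 451.5 CPM in Vehicle 1 to 4 and 507.6, 461.8, 479.7 and 560.2 CPM in Estrogen 1 to 4. The groups spanned similar ranges and the difference was 0.011 ± 0.11 (log2 scale, SE, 95% interval −0.24 to 0.26). Calr was at 666.9, 648.2, 632.7 and 476.0 CPM in Vehicle 1 to 4 and 635.5, 583.4, 623.7 and 633.8 CPM in Estrogen 1 to 4. Vehicle 4 was well under the 7 other libraries, and the difference was 0.031 ± 0.12 (log2 scale, SE, 95% interval −0.24 to 0.31). Canx (calnexin, the membrane-bound lectin chaperone) read 330.8, 327.5, 312.2 and 321.8 CPM in Vehicle 1 to 4 and 337.7, 345.1, 320.4 and 368.2 CPM in Estrogen 1 to 4, with Estrogen 3 inside the Vehicle range and a difference of 0.086 ± 0.084 (log2 scale, SE, 95% interval −0.10 to 0.27). Uggt1, the glucosyltransferase that returns unfolded glycoproteins to calnexin and calreticulin, had 181 ± 24.2 CPM (SD, n = 4) in Vehicle and 205 ± 14.8 CPM (SD, n = 4) in Estrogen, a difference of 0.18 ± 0.11 (log2 scale, SE, 95% interval −0.070 to 0.42). The signs of Hsp90b1 and Calr were not stable, since leaving out Vehicle 4 took Calr to −0.066 and leaving out Estrogen 4 took Hsp90b1 to −0.041.

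Of the 7 protein disulfide isomerases, 5 had a higher and 2 a lower fitted value, and Pdia5 and P4hb were at an unadjusted p under 0.05. Pdia5 (PDIR, chr16:35397312-35490873, minus strand) is a thioredoxin-fold oxidoreductase of the ER. Its level was 8.79, 9.46, 8.41 and 11.1 CPM in Vehicle 1 to 4 and 13.4, 17.8, 13.3 and 17.5 CPM in Estrogen 1 to 4. Every Estrogen library was above every Vehicle library, by at least the gap between 11.1 and 13.3 CPM. The means were 9.43 ± 1.17 CPM (SD, n = 4) in Vehicle and 15.5 ± 2.49 CPM (SD, n = 4) in Estrogen, and the difference was 0.72 ± 0.15 (log2 scale, SE, 95% interval 0.37 to 1.06). P4hb (protein disulfide isomerase itself, also the beta subunit of the collagen prolyl hydroxylase, chr11:120560298-120573253, minus strand) was read at 294.5, 276.4, 287.4 and 250.3 CPM in Vehicle 1 to 4 and 320.1, 350.5, 302.3 and 315.9 CPM in Estrogen 1 to 4. The groups did not overlap, but Vehicle 1 and Estrogen 3 were close, and the difference was 0.22 ± 0.092 (log2 scale, SE, 95% interval 0.012 to 0.42).

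The other 5 isomerases had fitted differences from −0.048 to 0.11. Pdia3 (ERp57, the partner of calnexin and calreticulin) was at 427.0, 385.9, 371.9 and 291.0 CPM in Vehicle 1 to 4 and 402.7, 385.0, 372.7 and 405.8 CPM in Estrogen 1 to 4. Vehicle 4 was again the lowest library, and the difference was 0.086 ± 0.12 (log2 scale, SE, 95% interval −0.19 to 0.36). Differences were 0.11 for Pdia6, 0.038 for Pdia4, −0.038 for Txndc11 and −0.048 for Txndc5 on the log2 scale. Txndc5, which is abundant in plasma cells, had 296 ± 51.7 CPM (SD, n = 4) in Vehicle and 286 ± 57.3 CPM (SD, n = 4) in Estrogen. The sign was not settled for Pdia3, Pdia4, Txndc11 or Txndc5, each of which changed it when 1 library was left out.

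The 4 J-domain proteins, which hand unfolded proteins to BiP and stimulate its ATPase, were divided: 2 were higher at an unadjusted p under 0.05 and 2 had fitted values below 0. Dnajc3 (P58IPK, chr14:118937976-118981697, plus strand), a co-chaperone of BiP, measured 139.1, 139.5, 126.8 and 143.8 CPM in Vehicle 1 to 4 and 157.0, 171.9, 151.0 and 187.5 CPM in Estrogen 1 to 4. The lowest Estrogen library exceeded the highest Vehicle library, and the difference was 0.28 ± 0.092 (log2 scale, SE, 95% interval 0.076 to 0.49). It was the only one of the 10 members with ERSE or ERSE-II that was at an unadjusted p under 0.05. Dnajb9 (ERdj4, chr12:44205559-44210326, minus strand), which recruits BiP to the sensor IRE1, was at 52.6, 44.4, 38.8 and 40.8 CPM in Vehicle 1 to 4 and 59.3, 53.1, 48.0 and 53.7 CPM in Estrogen 1 to 4. Vehicle 1 lay above Estrogen 3, and the difference was 0.28 ± 0.12 (log2 scale, SE, 95% interval 0.019 to 0.54). Of its 50-base exon windows 5.5% were also found in another annotated gene. Dnajb11 (ERdj3) had 147 ± 21.6 CPM (SD, n = 4) in Vehicle and 139 ± 10.7 CPM (SD, n = 4) in Estrogen, a difference of −0.086 ± 0.12 (log2 scale, SE, 95% interval −0.35 to 0.18), and Dnajc10 (ERdj5) had 83.7 ± 8.93 CPM (SD, n = 4) in Vehicle and 79.4 ± 4.52 CPM (SD, n = 4) in Estrogen, a difference of −0.076 ± 0.095 (log2 scale, SE, 95% interval −0.29 to 0.14). Their intervals reached from below to above 0.

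Serpinh1 (HSP47, chr7:99345376-99353239, minus strand), the chaperone that binds procollagen, showed the largest fitted difference of the 43. It measured 21.9, 19.7, 18.5 and 26.1 CPM in Vehicle 1 to 4 and 28.6, 40.9, 32.1 and 44.7 CPM in Estrogen 1 to 4. All Estrogen libraries lay above all Vehicle libraries, with Estrogen 2 and Estrogen 4 the highest and Vehicle 4 the highest of its group. The means were 21.5 ± 3.34 CPM (SD, n = 4) in Vehicle and 36.6 ± 7.51 CPM (SD, n = 4) in Estrogen, and the difference was 0.76 ± 0.17 (log2 scale, SE, 95% interval 0.39 to 1.14). HSP47 is best known in collagen-making stromal cells, and 9 markers of stroma and osteoblasts are given beside it. Their sum was 1.41 to 3.67 CPM in Vehicle and 1.34 to 3.33 CPM in Estrogen, with Lepr at 0 reads in every library and Col1a1 at a mean of 1.12 CPM in Vehicle and 1.45 CPM in Estrogen. The part of such cells in the difference of Serpinh1 was not tested. The 2 prolyl isomerases of this group differed less. Fkbp2 had 41.6 ± 5.68 CPM (SD, n = 4) in Vehicle and 46.3 ± 1.89 CPM (SD, n = 4) in Estrogen, a difference of 0.15 ± 0.11 (log2 scale, SE, 95% interval −0.085 to 0.39), and Ppib (cyclophilin B) had 43.9 ± 7.33 CPM (SD, n = 4) in Vehicle and 43.9 ± 6.37 CPM (SD, n = 4) in Estrogen, a difference of 0.0016 ± 0.15 (log2 scale, SE, 95% interval −0.33 to 0.33). Ppib shares 30.8% of its 50-base exon windows with other annotated genes, and its level is uncertain on that account.

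Sdf2l1 (chr16:17130138-17132383, minus strand), a small stress-induced protein that keeps BiP clients soluble, was the only one of the 3 small factors at an unadjusted p under 0.05. It measured 30.1, 29.3, 30.3 and 25.5 CPM in Vehicle 1 to 4 and 39.5, 36.2, 34.7 and 31.7 CPM in Estrogen 1 to 4. The groups were apart, with Estrogen 4 the lowest of its group and only slightly above Vehicle 3, and the difference was 0.30 ± 0.10 (log2 scale, SE, 95% interval 0.072 to 0.53). Manf, a secreted factor retained in the ER by binding to BiP, had 71.3 ± 10.9 CPM (SD, n = 4) in Vehicle and 75.4 ± 6.35 CPM (SD, n = 4) in Estrogen, a difference of 0.080 ± 0.12 (log2 scale, SE, 95% interval −0.20 to 0.36). Creld2, which carries an ERSE, had 39.7 ± 3.20 CPM (SD, n = 4) in Vehicle and 40.4 ± 1.97 CPM (SD, n = 4) in Estrogen, a difference of 0.024 ± 0.091 (log2 scale, SE, 95% interval −0.18 to 0.23). Both intervals included 0.

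**Figure D3:**
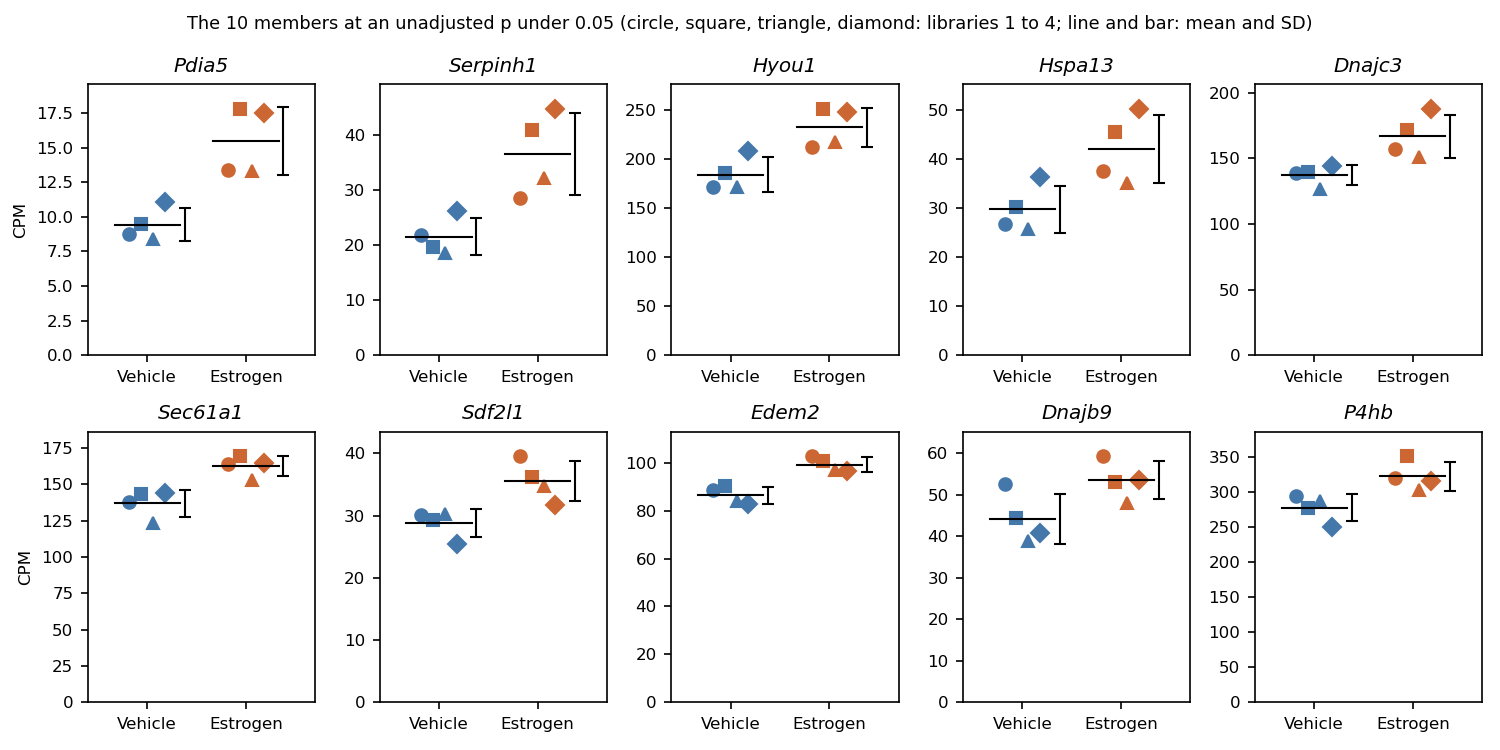
CPM in each of the 4 Vehicle (blue) and 4 Estrogen (orange) libraries for the 10 members at an unadjusted p under 0.05, with marker shape giving the library number, a horizontal line the mean and a bar the SD. For 8 genes the groups are apart, as for Pdia5 with 8.41 to 11.1 CPM in Vehicle and 13.3 to 17.8 CPM in Estrogen, while those of Hspa13 and Dnajb9 overlap by 1 library.

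Among the 8 genes of ER-associated degradation, 5 had a higher and 3 a lower fitted value, with a median of 0.02. Edem2 (chr2:155701677-155729475, minus strand), which starts the mannose trimming that marks glycoproteins for degradation, was the only one at an unadjusted p under 0.05. It read 88.5, 90.3, 84.1 and 82.7 CPM in Vehicle 1 to 4 and 102.6, 100.8, 96.8 and 96.4 CPM in Estrogen 1 to 4. The groups did not overlap and both were narrow, and the difference was 0.20 ± 0.072 (log2 scale, SE, 95% interval 0.038 to 0.36), the smallest of the 10. Herpud1, which assembles the degradation complex around HRD1, measured 456.0, 376.6, 391.4 and 454.6 CPM in Vehicle 1 to 4 and 445.5, 403.8, 424.4 and 461.1 CPM in Estrogen 1 to 4, with a difference of 0.048 ± 0.10 (log2 scale, SE, 95% interval −0.18 to 0.28). The groups overlapped widely. Syvn1 (HRD1, the ubiquitin ligase of this pathway) had the lowest fitted difference of all members, −0.15 ± 0.10 (log2 scale, SE, 95% interval −0.38 to 0.086), with 431 ± 36.8 CPM (SD, n = 4) in Vehicle and 389 ± 33.9 CPM (SD, n = 4) in Estrogen. Sel1l, its membrane partner, had 106 ± 14.1 CPM (SD, n = 4) in Vehicle and 118 ± 13.6 CPM (SD, n = 4) in Estrogen, a difference of 0.15 ± 0.12 (log2 scale, SE, 95% interval −0.11 to 0.42). The remaining 4 were near 0, at 0.040 for Selenos, 0.0031 for Edem1, −0.011 for Derl1 and −0.039 for Derl2. Ligase and partner thus had fitted values of opposite sign, neither at an unadjusted p under 0.05.

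The translocon genes had a higher fitted value in 6 of 8 members, and a median of 0.11. Sec61a1 (chr6:88503579-88518905, minus strand), the pore itself, measured 137.9, 143.0, 123.6 and 143.7 CPM in Vehicle 1 to 4 and 163.6, 169.2, 152.8 and 164.8 CPM in Estrogen 1 to 4. The groups were apart, with Vehicle 3 the lowest of all 8 libraries, and the difference was 0.25 ± 0.081 (log2 scale, SE, 95% interval 0.065 to 0.43). An annotated antisense gene, Gm44170, overlaps it, and 6.5% of its windows are shared. The other subunits of the pore, Sec61b and Sec61g, had differences of 0.11 and 0.15, each with an interval through 0. Ssr1, the alpha subunit of the translocon-associated complex, was at 183.0, 178.5, 178.6 and 180.3 CPM in Vehicle 1 to 4 and 195.2, 198.9, 178.3 and 212.1 CPM in Estrogen 1 to 4. The Vehicle libraries were close to each other, from 178.5 to 183.0 CPM, Estrogen 3 lay marginally beneath them, and the difference was 0.12 ± 0.080 (log2 scale, SE, 95% interval −0.056 to 0.30). Ssr3 stood at 0.098, Sec63 at 0.065, Ssr2 at −0.00097 and Sec62 at −0.13. Sec61b, Sec61g, Sec62 and Ssr2 share more than 10% of their windows with other annotated genes, so their levels are uncertain.

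None of the 3 sensors was at an unadjusted p under 0.05. Ern1 (IRE1, the kinase and RNase that splices Xbp1, chr11:106394650-106487852, minus strand) measured 52.1, 70.3, 49.1 and 108.6 CPM in Vehicle 1 to 4 and 74.2, 141.0, 86.8 and 131.0 CPM in Estrogen 1 to 4. The 2 groups overlapped, and Vehicle 4 was at 2.21 times Vehicle 3, so that the difference of 0.63 ± 0.29 (log2 scale, SE, 95% interval −0.013 to 1.27) carried the widest interval of the 43. Atf6, the sensor that is cleaved to a transcription factor, was at 168.7, 160.5, 122.1 and 177.2 CPM in Vehicle 1 to 4 and 182.0, 174.7, 166.0 and 179.0 CPM in Estrogen 1 to 4. Vehicle 3 stood below the other 7 libraries, and the difference was 0.16 ± 0.12 (log2 scale, SE, 95% interval −0.10 to 0.42). Eif2ak3 (PERK, the kinase that slows translation) was at 185.6, 169.1, 154.4 and 140.9 CPM in Vehicle 1 to 4 and 186.9, 147.1, 167.5 and 137.6 CPM in Estrogen 1 to 4. The groups covered nearly equal ranges, with a difference of −0.024 ± 0.12 (log2 scale, SE, 95% interval −0.30 to 0.25).

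The members did not follow one order across libraries. Expressed as the log2 deviation from each gene's mean over 8 libraries, the median of the 10 was −0.12, −0.12, −0.27 and −0.10 in Vehicle 1 to 4 and 0.12, 0.21, 0.05 and 0.21 in Estrogen 1 to 4. The values that chose these 10 are the same as those described here, so their separation is no test. The median of the 33 was 0.11, −0.012, −0.019 and −0.15 in Vehicle and 0.089, −0.037, 0.0074 and 0.076 in Estrogen. Within Vehicle, 25 of the 33 were highest in Vehicle 1 and 20 were lowest in Vehicle 4, whereas 6 of the 10 were highest in Vehicle 4 and 7 were lowest in Vehicle 3. The share of all reads on the 43 genes was 0.760 ± 0.0204% (SD, n = 4) in Vehicle and 0.832 ± 0.0287% (SD, n = 4) in Estrogen, with ranges of 0.735 to 0.782% and 0.809 to 0.871% that did not overlap. After scaling by TMM the sum was 7752 ± 411 CPM in Vehicle and 8179 ± 177 CPM in Estrogen, and the ranges of 7343 to 8292 and 8009 to 8333 CPM overlapped.

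The cell markers also varied between libraries. The 5 B cell markers summed to 9543, 7787, 7862 and 5139 CPM in Vehicle 1 to 4 and to 8141, 4175, 6440 and 4152 CPM in Estrogen 1 to 4, with all 5 at a lower fitted value in Estrogen and a median log2 difference of −0.43. Vehicle 4, Estrogen 2 and Estrogen 4 were thus lowest in B cell markers, and within their groups the same 3 libraries were the highest in 6 of the 10 members, Serpinh1, Pdia5, Hyou1, Hspa13, Dnajc3 and Sec61a1, and in Ern1. Other members of the 10 did not follow that order, since P4hb, Edem2 and Sdf2l1 were lowest of Vehicle in Vehicle 4, and Edem2 and Sdf2l1 were lowest of Estrogen in Estrogen 4. The 7 markers of plasmacytoid dendritic cells, a secretory cell type of the marrow, summed to 2986, 2996, 2830 and 3529 CPM in Vehicle and to 3430, 3812, 3132 and 4498 CPM in Estrogen. Of these 7, 5 had a higher and 2 a lower fitted value, and 1, Siglech, was at an unadjusted p under 0.05. Siglech had 655 ± 189 CPM (SD, n = 4) in Vehicle and 1033 ± 319 CPM (SD, n = 4) in Estrogen (log2 difference 0.66). Within their groups Vehicle 4, Estrogen 4 and Estrogen 2 were its highest libraries. Of 10 monocyte and macrophage markers 8 had a higher fitted value in Estrogen, with sums of 1538 to 2512 CPM in Vehicle and 1599 to 3032 CPM in Estrogen, most of it Lyz2. At an unadjusted p under 0.05, 3 of these were higher, Cd68 (0.48), C1qa (0.86) and C1qc (0.68), and 1 lower, Ly6c2 (−0.62, log2 scale). The 8 markers of T and NK cells summed to 47.8 to 113 CPM in Vehicle and 48.7 to 144 CPM in Estrogen, most of it Cd8a. Cd8a was the only one with a higher fitted value (0.64, log2 scale). Of these markers 7 had a lower fitted value and 3 were lower at that level, with a median of −0.85. One of them, Cd8b1, had 14.4 ± 0.965 CPM (SD, n = 4) in Vehicle and 7.07 ± 0.996 CPM (SD, n = 4) in Estrogen and is the gene that DESeq2 called. The 8 neutrophil markers summed to 3062 to 8597 CPM and to 3137 to 9003 CPM. The 10 plasma cell markers summed to 1168 to 1333 CPM in Vehicle and 1180 to 1312 CPM in Estrogen. Irf4, Mzb1 and Xbp1 had the largest shares of that sum. Other markers were barely read: Jchain had means of 1.16 CPM in Vehicle and 1.01 CPM in Estrogen. Fkbp11 had means of 1.11 CPM in Vehicle and 1.28 CPM in Estrogen, and Tnfrsf17 was too low to test. Of the 9 tested, 6 had a higher and 3 a lower fitted value, and single markers varied more than the sum. Prdm1 had 7.73 ± 1.56 CPM (SD, n = 4) in Vehicle and 10.7 ± 1.48 CPM (SD, n = 4) in Estrogen (log2 difference 0.47, the only 1 at an unadjusted p under 0.05). Mzb1, which shares 53.5% of its windows with another annotated gene, had 259.7 ± 70.5 CPM (SD, n = 4) in Vehicle and 199 ± 54.6 CPM (SD, n = 4) in Estrogen (log2 difference −0.38). No marker was at an adjusted p under 0.05 in edgeR's quasi-likelihood test with Benjamini-Hochberg adjustment. The part of these cells in the differences of the 43 genes was not tested.

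**Figure D4:**
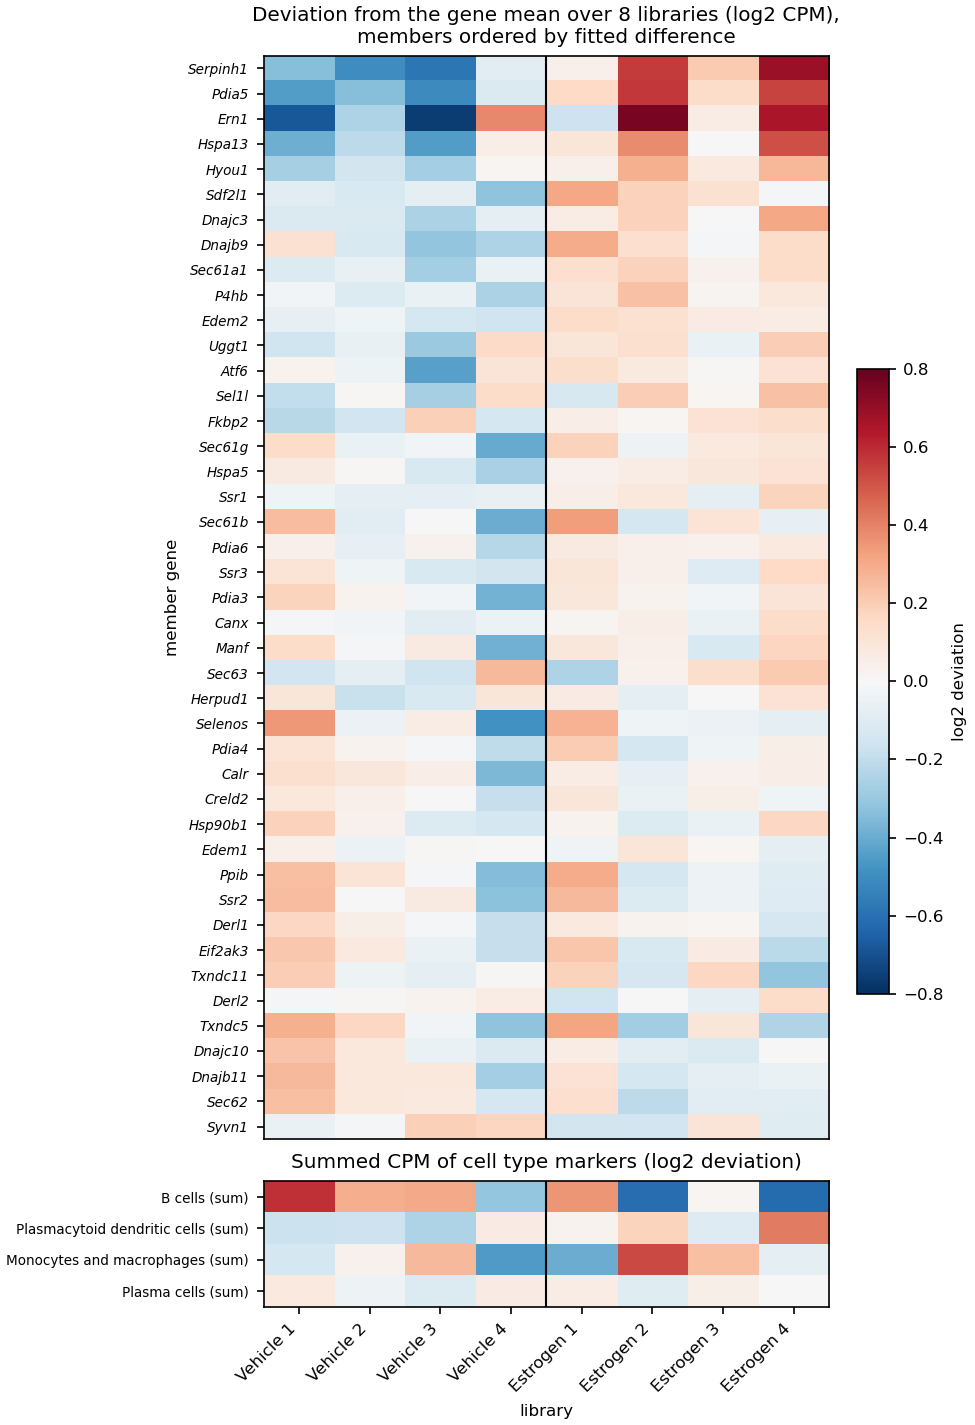
Log2 deviation of each member (rows, ordered by fitted difference) from its own mean over 8 libraries (columns, Vehicle left of the black line), red above and blue below the mean, with the summed CPM of 4 cell type marker lists underneath. The upper rows, from Serpinh1 to Edem2, are mostly blue in Vehicle and red in Estrogen, while many lower rows are red in Vehicle 1 and Estrogen 1 and blue in Vehicle 4.

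The promoter elements printed above were set beside the differences. The 10 members with ERSE or ERSE-II had log2 differences from −0.15 to 0.28 with a median of 0.04, and 1 of them, Dnajc3, was at an unadjusted p under 0.05. The 26 members with a window and neither element ranged from −0.13 to 0.76 with a median of 0.11, and 6 were at that level. The 7 members without a window had a median of 0.16, with 3 at that level. Split by the HRE core ACGTG, the 18 members with it had a median of 0.10 and 6 at that level, and the 18 without it a median of 0.06 and 1 at that level. These splits are descriptions and were given no test, since the members share libraries.

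**Figure D5:**
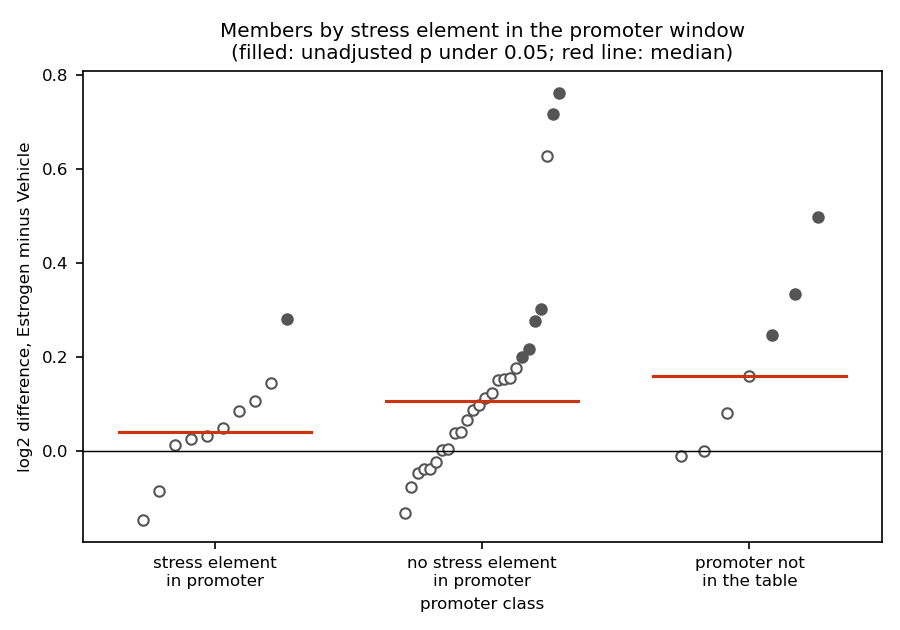
Fitted log2 difference of each member (points, filled at an unadjusted p under 0.05) by promoter class: a stress element (ERSE or ERSE-II, 10 members), neither (26 members) or no window in the table (7 members), with the median as a red line. Medians are 0.04, 0.11 and 0.16, and the members above 0.6 all lie in the class with neither ERSE nor ERSE-II. That class includes Txndc5 and Txndc11, which hold UPRE.

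Neighbouring genes of the pathway were read from 7 lists of 132 genes, 122 of them tested. Here 63 had a higher and 59 a lower fitted value, 8 were higher at an unadjusted p under 0.05 (6.56%, background 2.27%), 0 were lower at that level, and none passed the adjusted test. These lists, too, were chosen with earlier results of these data known.

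The transcription factors and outputs of the unfolded protein response numbered 14, with 8 higher, 6 lower and 0 at an unadjusted p under 0.05. Xbp1, the target of IRE1 and a driver of secretory expansion, had 222 ± 11.4 CPM (SD, n = 4) in Vehicle and 256 ± 32.6 CPM (SD, n = 4) in Estrogen, a difference of 0.20 ± 0.11 (log2 scale, SE, 95% interval −0.035 to 0.44). Atf4, which PERK signalling turns on, had 357 ± 35.9 CPM (SD, n = 4) in Vehicle and 357 ± 20.8 CPM (SD, n = 4) in Estrogen, a difference of −0.0011. Ddit3 (CHOP), a gene induced downstream of it, had 33.8 ± 2.44 CPM (SD, n = 4) in Vehicle and 35.6 ± 4.51 CPM (SD, n = 4) in Estrogen, a difference of 0.074. The counts do not separate spliced from unspliced Xbp1, and none of these 3 was at that level.

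All 7 tested collagen prolyl and lysyl hydroxylase genes, which act on the procollagen that HSP47 binds, had a higher fitted value in Estrogen, with a median of 0.34. One, P3h3, was at an unadjusted p under 0.05, at the low level of 1.19 ± 0.367 CPM (SD, n = 4) in Vehicle and 2.12 ± 0.892 CPM (SD, n = 4) in Estrogen, and P4ha1, the catalytic partner of P4hb, had 22.9 ± 3.10 CPM (SD, n = 4) in Vehicle and 29.3 ± 8.11 CPM (SD, n = 4) in Estrogen, a difference of 0.36 ± 0.19 (log2 scale, SE, 95% interval −0.081 to 0.79). In the oligosaccharyltransferase, which adds N-glycans at the translocon, 3 of 12 genes were higher at that level, and Rpn2 had 139.6 ± 7.20 CPM (SD, n = 4) in Vehicle and 167 ± 10.2 CPM (SD, n = 4) in Estrogen, a difference of 0.26 ± 0.081 (log2 scale, SE, 95% interval 0.076 to 0.44). Of 24 genes of COPII vesicles and of their cargo and retrieval receptors, 16 had a higher fitted value and 3 were at that level, among them Mcfd2 (0.31), a cargo receptor subunit, and Tmed10 (0.22). In the remaining 3 lists, 7 of 22 further degradation genes, 7 of 17 genes of signal recognition and signal peptidase and 11 of 26 further oxidoreductases and helpers had a higher fitted value, with 1 gene at that level, Calu (0.21), a calcium-binding protein of the secretory pathway.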

How the data were processed

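RNA was taken from MACS-sorted bone marrow B cells and sequenced after an Illumina TruSeq preparation. The file deposited by the authors is a single table of raw counts, Ensembl genes by libraries, in which each column was traced to its library. CASAVA, Bowtie 0.12.2 and the build mm10 are named in the submitters' processing notes, while the read counter, its annotation and its strand setting were not given in the sources used here. Without a known strand setting, reads of a member and of an antisense gene cannot be told apart, which concerns 15 members with an exon under a gene on the opposite strand.

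Of 46983 identifiers, 46488 matched a symbol in GENCODE M21 (GRCm38, the assembly that mm10 names). Genes kept by filterByExpr (15175, holding 99.9% of reads) were scaled by TMM and fitted in edgeR 4.0.16 (R 4.3.3) as Estrogen against Vehicle, with 4 libraries each, robust quasi-likelihood tests and Benjamini-Hochberg adjustment over all genes tested. The biological coefficient of variation was 22.7%. CPM are counts for every 1000000 reads of the TMM-scaled library, and log2 deviations used a prior count of 2. Alternatives were DESeq2 1.42.0, limma-voom (limma 3.58.1), other scalings, no filter, the replicate number as a block and each library left out. The scripts were tested on simulated data. Exon sequence was cut into 50-base windows and looked up in all other annotated transcripts.

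The members, lists and markers were chosen with earlier results of these data known. Values in every library are given for members at an unadjusted p under 0.05 and for 14 members named whatever their values. From each other list at most the 2 genes of smallest p are named, besides Xbp1, Atf4, Ddit3 and cell type markers. One listed B cell marker is not reported here and was left out of its list. The count of members whose groups do not overlap was added after seeing the data.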

Additional observations from a re-analysis of the deposited data

Results flagged for a closer look

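In Estrogen 1, Selenos, a selenoprotein of the degradation complex, was read at 91.7 CPM, while the other 3 Estrogen libraries lay between 71.9 and 73.6 CPM. The gap to the nearest of them was 0.914 of the range of the group. It was the only such value among 86 groups checked, the 43 members in each of the 2 treatments. Chance alone gives about 1 in 20 groups, so 1 such value is no excess over chance. In Vehicle, Selenos was likewise highest in library 1, at 96.1 CPM.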

How the results depend on the processing

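Over all genes, 1 was called by DESeq2 (Cd8b1) and 1 with the replicate number as a block (Tgm2), against 0 otherwise. By their Y-linked and Xist reads, Vehicle 3 and Estrogen 3 came from different mice, so number 3 does not pair cells of one mouse. The block is therefore wrong for that number as a pairing by mouse. Whether the other numbers pair the libraries was not settled. Deviations from the group means correlated at 0.674, −0.131, 0.0798 and 0.554 for numbers 1 to 4, and only numbers 1 and 4 correlated best with their own. Members higher at an unadjusted p under 0.05 numbered 10 or 11 under the other scalings and tools, beside 2.09 to 3.03% of all genes tested. They numbered 8 without a filter (all-gene share 2.41%), 13 with the block (7.17%) and 7 to 11 with a library left out. The all-gene share, 2.27% in the main fit, was highest without Vehicle 4, at 8.04%, where 8 of the 10 stayed at that level. It was 5.95% without Estrogen 1 (7 of the 10 stayed) and 1.17% without Vehicle 1 (10 stayed). Without Estrogen 4 it was 1.11% (8 stayed), and without Estrogen 2 it was 0.944% (7 stayed). Members not overlapping numbered 8 to 12 and the median ran from 0.057 to 0.15 with a library left out. The all-gene share of non-overlap was not counted in those fits. Of the 43 members, 26 kept their sign under all 14 alternatives, the 10 among them.

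Scaling by library totals gave 39 members a higher fitted value, shifted the all-gene median (−0.0054) to 0.046, and turned the sign of Txndc5 (0.0026), Txndc11 (0.010), Derl1 (0.042), Derl2 (0.015), Ssr2 (0.053) and Eif2ak3 (0.026). Ssr2 also turned with DESeq2 size factors (0.0046), without a filter (0.0065), with DESeq2 (0.0046), with limma-voom (0.0050) and with the block (0.0052). With a library left out, log2 differences crossed 0 for Hsp90b1 (−0.041 to 0.098), Calr (−0.066 to 0.098), Pdia3 (−0.0099 to 0.18), Pdia4 (−0.029 to 0.10), Txndc5 (−0.18 to 0.059), Txndc11 (−0.11 to 0.055), Dnajb11 (−0.18 to 0.0084), Dnajc10 (−0.12 to 0.0093), Ppib (−0.11 to 0.10), Manf (−0.017 to 0.16), Creld2 (−0.027 to 0.075), Edem1 (−0.027 to 0.035), Derl1 (−0.068 to 0.062), Derl2 (−0.093 to 0.0030), Selenos (−0.089 to 0.20), Ssr2 (−0.097 to 0.10) and Eif2ak3 (−0.11 to 0.063). The cause was not tested. With 4 libraries a group, the median interval of a member reached 0.25 to either side on the log2 scale, which limits what could be resolved for a typical member.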
